A study of Sus scrofa with 6 samples.

Results

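The genes described here encode the signals by which cells of the developing cortex instruct each other: the ligands, receptors and immediate mediators of the Wnt, Notch, TGF-beta and BMP, FGF, Hedgehog and receptor tyrosine kinase pathways. Wnt ligands bind Frizzled and LRP receptors and stabilise beta-catenin, Notch ligands on a neighbouring cell bind the Notch receptor, which is then cleaved by ADAM proteases and gamma-secretase, and ligands of the TGF-beta superfamily bring together type I and type II receptor kinases that phosphorylate SMAD proteins. FGF, VEGF, PDGF, EGF and KIT ligands act through receptor tyrosine kinases. In the embryonic cortex these pathways are known for patterning, for the balance between division and differentiation of progenitors, for the switch to making glia and for the growth of blood vessels. Members were chosen by gene symbol, with earlier results of these data known, from a fixed set of these pathways' naming series (WNT, FZD, NOTCH, JAG, BMP, TGFB, SMAD, FGF and the like). The set does not cover every gene of these pathways. It took SFRP2 to SFRP5 but not SFRP1, and SHH but not IHH, and SFRP1 and IHH are described with the other pathway genes. A gene counted only where a probe set carries its symbol and no other. This gave 53 genes of the 6765 with a symbol of their own on the array, read by 92 of the 23999 probe sets tested. Each gene is described by its brightest probe set, the set with the highest mean log2 signal over all arrays.

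The study compared the cerebral cortex of pig embryos before and after the first cortical folds appear, with 3 embryos at embryonic day 60 (E60, arrays 1 to 3) and 3 at embryonic day 80 (E80, arrays 4 to 6). Total RNA of each embryo was hybridised to 1 Affymetrix Pig Genome Array, and no treatment or genetic change is named. The embryos came from 3 litters, but the labels do not say which embryo came from which, nor name sex or breed. A litter has 1 age, so each lies within a day, and litter and day cannot be told apart. If these are all the litters, the 3 embryos of at least 1 day were littermates. The tests and SDs below treat all embryos as independent. Values are MAS5 signals, an arbitrary unit per probe set. Differences are given as log2 signal at E80 minus E60, and "rose" or "fell" is used of a gene whose limma p, adjusted over all probe sets tested, was under 0.05. As the tissue is a mixture, fewer cells of a type and less RNA per cell cannot be told apart.

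The median signal of all probe sets was 55.6 to 64.8 on the 6 arrays. Markers that define cortical neurons were not analysed here, so the tissue label was not checked against them. Array 6 stood apart. The summed signal of 4 measured choroid plexus markers of 6 was 5463 there, against 109 and 196 on the other E80 arrays and 88.6 to 174 at E60, and that of 3 measured microglial markers of 5 was 450.0, against 94.9 to 152 on the other 5 arrays. The 4 measured fibroblast and meningeal markers of 5 summed to 819 to 1291 at E60 and to 430, 847 and 332 on arrays 4, 5 and 6. No marker was at 0.

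Of the 53 genes, 1 fell and none rose. The gene that fell was TGFBR1, the type I receptor of TGF-beta. This is 1.89% of the members, while 1.05% of all 6765 genes fell and 1.49% rose by the same test, and of all 23999 probe sets 1.01% fell and 0.933% rose. The share of members called was therefore near the background. At an unadjusted p under 0.05, 10 members were lower and 5 higher at E80, or 18.9% and 9.43%, against 10.6% and 10.1% of all genes. In 16 members all E80 arrays lay below all E60 arrays, and in 6 all lay above. That is 30.2% and 11.3% of the members, against 14.7% and 12.8% of all genes. The excess was smaller when the log2 signals of all probe sets of a gene were averaged. The E80 arrays then lay wholly below in 11 members (20.8%), against 14.8% of all genes. With the median of each array set to a common value, the median difference of all probe sets moved from -0.05 to 0.06. Under this centring the E80 arrays lay wholly below in 12 members (22.6%), against 8.09% of all genes. The median difference over the members was -0.10, and 31 of the 53 (58.5%) were below 0, against 50.1% of all genes. Under that centring, which shifts all genes, 25 of the 53 (47.2%) were below 0, against 35.9% of all genes.

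By role, 15 of 21 receptors had a negative difference (median -0.24), as had 10 of 19 ligands (median -0.08), and under the common median 13 and 7 had. All 5 intracellular mediators of signalling were below 0 (median -0.46). They are the SMAD proteins SMAD1, SMAD3 and SMAD4, beta-catenin (CTNNB1) and the Hedgehog effector GLI1, with CTNNB1 at -0.03 and above 0 under the centring. Of the 5 secreted modulators, 4 were above 0. Of the 53 brightest probe sets, 40 were among the brightest 66% of all probe sets. Their median SD within a day was 0.19 on the log2 scale, against 0.66 for the 13 dimmer ones, so large differences among the latter had wide intervals.

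**Figure D1:**
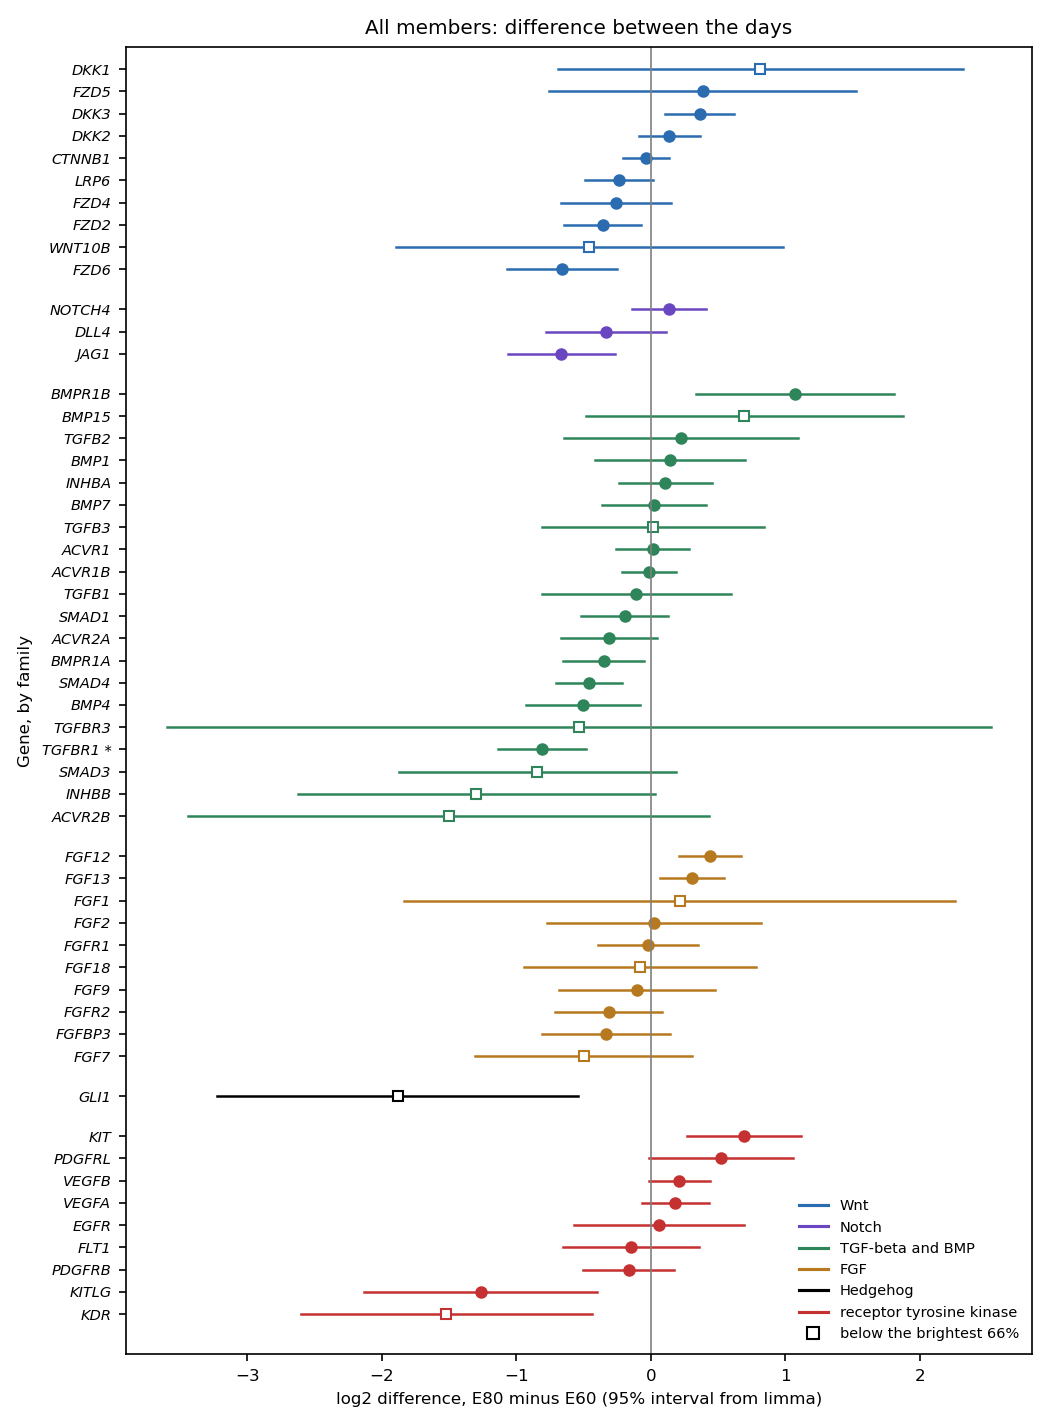
Log2 difference (E80 minus E60, horizontal axis) of the 53 genes, grouped and coloured by family, with the 95% interval from limma; open squares are probe sets below the brightest 66%, and the star marks the gene past the test. TGFBR1 at -0.81 is the gene with the star, and the intervals of dim genes such as TGFBR3 (-3.60 to 2.53) span both directions.

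TGFBR1, the kinase that phosphorylates SMAD proteins once TGF-beta has bound, had the smallest p of the members. Its signal was 222, 238 and 197 on the E60 arrays and 132, 106 and 139 on the E80 arrays. Every E80 array lay below every E60 array, and the gap between the days was wider than the spread within either. The mean was 219 ± 20.5 (SD, n = 3) at E60 and 126 ± 17.3 (SD, n = 3) at E80, so the gene fell 1.75-fold, with a log2 difference of -0.81 (standard error 0.14, adjusted p = 0.0361 from limma). A second probe set read 65.1, 64.5 and 38.7 at E60 and 24.3, 30.2 and 22.6 at E80, a log2 difference of -1.10 (standard error 0.27, adjusted p = 0.0848). This probe set did not pass, although its days did not overlap either. The last probe set was dim, at 0.578 to 4.19, with a difference of -0.99 (standard error 0.88). The study itself listed TGFBR1 from these same arrays, by the accession of the dimmer probe sets, so the direction is not independent evidence. The fold it printed was larger than the 2.14 found here for the brighter of those probe sets. The call was lost whichever of the 6 arrays was left out, with adjusted p of 0.0516 to 0.152, while the difference stayed between -0.88 and -0.69.

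The other members of the TGF-beta and activin branch gave no call. The ligands TGFB1, TGFB2 and TGFB3 had differences of -0.11, 0.22 and 0.02, each with overlapping days. TGFB2 varied widely within the days, with 171, 193 and 107 at E60 and 237, 95.2 and 249 at E80, and arrays 3 and 5 were the low ones. The coreceptor TGFBR3 spread from 1.22 to 29.0 with no separation. The activin subunit INHBA was at 140 to 201 throughout, with a difference of 0.11 (interval -0.24 to 0.45). INHBB was dim, at 2.43 to 5.82 and 1.29 to 1.98, and its difference of -1.30 has an interval that reaches 0.03. Among activin receptors, the type I receptor ACVR1B had a difference of -0.01 with a narrow interval of -0.21 to 0.19. The type II receptor ACVR2A lay lower on each E80 array (139, 142 and 116, against 156, 196 and 144) and did not pass (log2 difference -0.31, adjusted p = 0.338).

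SMAD4, the common partner of the receptor-activated SMADs, came next to TGFBR1 in this family. Its signal was 298, 302 and 257 at E60 and 198, 217 and 206 at E80. The E80 arrays were close together and all below E60. The log2 difference was -0.46 (standard error 0.11), and the adjusted p of 0.0729 from limma misses the threshold. With array weights it was under it, at 0.0299. SMAD1, which carries BMP signals, had a difference of -0.19 that leans on array 5 (242, against 309 to 355 on the others), and was -0.05 without it. SMAD3, which carries TGF-beta and activin signals, was dim and overlapped (-0.84, adjusted p = 0.374).

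The type I BMP receptors had differences of opposite sign. BMPR1A was at 140, 135 and 135 at E60 and at 97.3, 121 and 104 at E80, a log2 difference of -0.35 (standard error 0.13, adjusted p = 0.211). BMPR1B was at 69.6, 35.3 and 43.2 at E60 and at 75.5, 147 and 89.4 at E80, a log2 difference of 1.07 (standard error 0.32, adjusted p = 0.130). Neither passed, and in both the days did not overlap, although array 1 of BMPR1B lay close to array 4. The 2 further probe sets of BMPR1B were also higher at E80, by 1.00 (adjusted p = 0.117) and 1.29 (adjusted p = 0.390). By their codes all 3 belong to the same transcript cluster, so they are not independent. The ligand BMP4, a dorsal signal of the telencephalon, had 91.2, 97.5 and 104 at E60 and 54.7, 83.0 and 71.7 at E80, with array 4 lowest. Its log2 difference of -0.50 did not pass (adjusted p = 0.203). BMP7 did not separate, with a difference of 0.02 (interval -0.36 to 0.41). The remaining members of this family, ACVR1, ACVR2B, BMP1 and BMP15, overlapped, with differences of -1.50 to 0.70 and adjusted p of 0.399 to 0.969.

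KIT, a receptor tyrosine kinase, and its ligand KITLG, also called stem cell factor, had differences of opposite sign. The signal of KITLG was 115, 46.8 and 45.5 at E60 and 27.6, 20.8 and 30.7 at E80. Array 1 was far above the others of its day, while the E80 arrays were all below the lowest of E60. The mean was 69.1 ± 39.8 (SD, n = 3) at E60 and 26.4 ± 5.07 (SD, n = 3) at E80, a log2 difference of -1.27 (standard error 0.38, adjusted p = 0.130 from limma). Without array 1 it was -0.83. The study listed KITLG from these arrays as well, with a larger fold than the 2.40 found here. KIT was at 391, 510 and 612 at E60 and at 682, 971 and 782 at E80, all above E60. Its log2 difference was 0.69 (standard error 0.18, adjusted p = 0.0990). Neither gene passed, each is read by 1 probe set, and the difference between them was not tested.

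**Figure D2:**
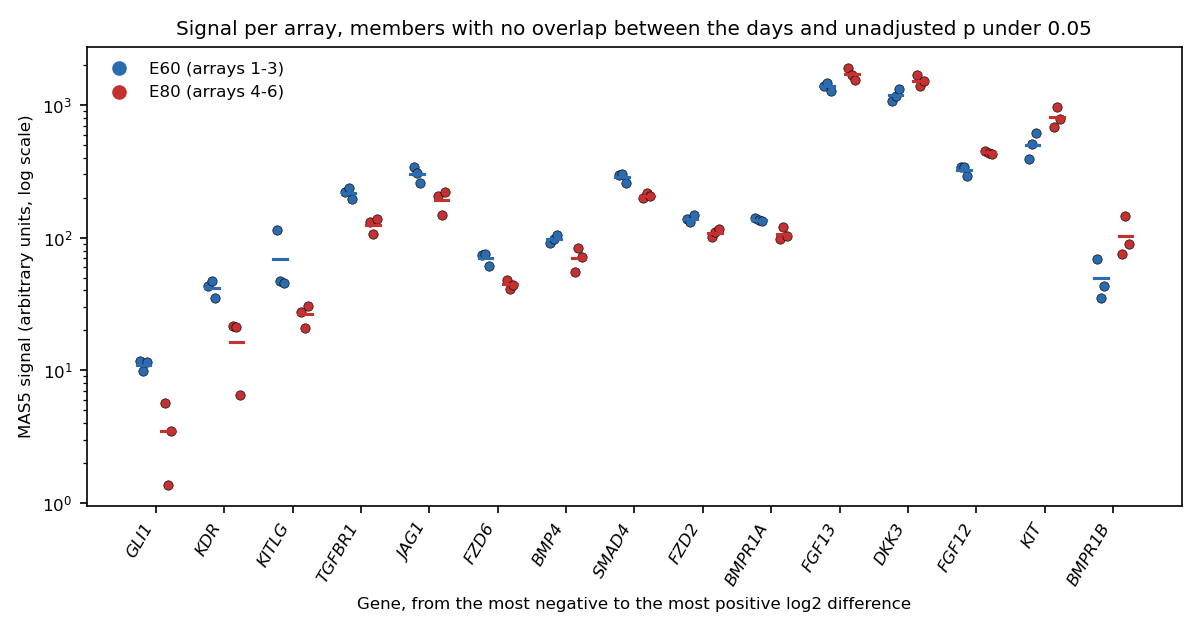
MAS5 signal (vertical axis, log scale) on each array for the 15 members with no overlap between the days and an unadjusted p under 0.05, ordered by log2 difference; blue points are E60, red points E80 and bars are the means of 3 arrays. KITLG shows array 1 apart at 115 and KDR shows array 6 apart at 6.52, while the 3 arrays of each day lie closer together for TGFBR1, SMAD4 and FGF12.

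KDR, the main signalling receptor for VEGF on endothelial cells, was at 43.1, 46.8 and 35.0 at E60 and at 21.4, 21.3 and 6.52 at E80. The days did not overlap, and array 6 was the lowest. The mean was 41.6 ± 6.05 (SD, n = 3) at E60 and 16.4 ± 8.59 (SD, n = 3) at E80. The log2 difference of -1.52 (standard error 0.47) did not pass (adjusted p = 0.141), and it was -0.95 without array 6, the array with the high choroid plexus markers. This probe set is below the brightest 66%, and the other probe set of KDR overlapped (-0.47, adjusted p = 0.585). FLT1, the other VEGF receptor measured, had a difference of -0.15 (interval -0.66 to 0.36). All 7 fixed endothelial markers were measured, with CLDN5 at 640 to 900 on the arrays. Their summed signal was 1358 to 1498 at E60 and 1095 to 1339 at E80, with a median log2 difference of -0.33, and none passed. Their part in the difference of KDR was not tested. The ligands VEGFA (0.18, interval -0.06 to 0.43) and VEGFB (0.21, interval -0.02 to 0.44) overlapped between the days, and neither passed. The other probe sets of VEGFA had differences of -0.06, -0.01 and -0.66. Among the remaining receptors, PDGFRB of pericytes had a difference of -0.16 and EGFR of 0.06, both overlapping. EGFR was at 79.8 to 172 at E80, with array 6 the highest. PDGFRL, a secreted relative of the PDGF receptors, overlapped with a difference of 0.52 (adjusted p = 0.288).

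In the Wnt family 10 genes were measured and none passed. FZD1, which the study listed as lower at E80, has no symbol of its own here and is not among them. The Frizzled receptor FZD6, known from planar cell polarity, was at 74.5, 75.5 and 61.4 at E60 and at 48.1, 41.0 and 44.1 at E80. The days stood well apart, and the log2 difference of -0.66 (standard error 0.18) had an adjusted p of 0.103 from limma. FZD2 was at 138, 132 and 147 and then at 100.4, 110 and 115, a difference of -0.36 (standard error 0.12, adjusted p = 0.179). FZD4 (-0.26) and the coreceptor LRP6 (-0.24, adjusted p = 0.306) also lay lower on every E80 array. Both probe sets of LRP6 did so, but by their codes they belong to the same transcript cluster. The other probe set of FZD4 overlapped with 0.06. FZD5 overlapped, with array 3 low at 13.1. The direction was the other way for DKK3, a secreted relative of the Dickkopf Wnt inhibitors, with 1067, 1178 and 1327 at E60 and 1689, 1387 and 1522 at E80. It was higher on each E80 array by little, with a difference of 0.37 (standard error 0.11, adjusted p = 0.137). The Wnt inhibitors DKK1 and DKK2 overlapped, and the ligand WNT10B was dim, at 1.28 to 3.83.

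Beta-catenin (CTNNB1), the transcriptional coactivator of the Wnt pathway and a partner of cadherins, is read by 5 probe sets, the most of any member. On the brightest the signal was 1632 to 1697 at E60 and 1575 to 1678 at E80, a difference of -0.03 with a narrow interval of -0.21 to 0.14. Another probe set was at 964, 983 and 1282 at E60 and at 1563, 1867 and 1473 at E80, wholly apart, with a log2 difference of 0.61 (standard error 0.14, adjusted p = 0.0676). A further one lay lower on each E80 array, with a difference of -0.41 (adjusted p = 0.189). The last pair overlapped, at 0.02 and 0.16. None passed, and the probe sets of this gene thus gave values on both sides of 0.

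Of the Notch family only the ligands JAG1 and DLL4 and the receptor NOTCH4 have a symbol of their own here. JAG1, which marks progenitor domains and also vessels, was at 339, 308 and 260 at E60 and at 207, 148 and 222 at E80. All E80 arrays were below E60 and array 5 was lowest. The log2 difference was -0.67 (standard error 0.17, adjusted p = 0.0953 from limma), and its 2 dimmer probe sets had differences of -0.58 and -1.55. DLL4, the Notch ligand of sprouting endothelium, was at 42.1, 49.5 and 42.0 and then at 35.9, 35.5 and 34.4, apart by little (-0.33, adjusted p = 0.418). NOTCH4, an endothelial Notch receptor, was at 104 to 112 and at 117 to 124, higher on each E80 array by 0.14 (interval -0.14 to 0.41).

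The 10 measured FGF genes divide into a pair of intracellular FGF homologous factors and the secreted FGF system. FGF12 and FGF13 are not secreted and are known to bind voltage-gated sodium channels of neurons. FGF12 was at 341, 343 and 290 at E60 and at 453, 438 and 429 at E80. The days were clearly apart and the E80 arrays lay close together, and the log2 difference of 0.44 (standard error 0.10) had an adjusted p of 0.0682 from limma. Under the common median it passed, with a rise of 0.56 (adjusted p = 0.0438). A second, dim probe set of FGF12 overlapped with -0.42, and array 6 was low at 4.70 (14.5 to 22.2 on the others). With the log2 signals of both averaged the difference was 0.0096 (adjusted p = 0.989). FGF13 was at 1400, 1479 and 1277 at E60 and at 1912, 1702 and 1540 at E80, again without overlap, with a difference of 0.31 (standard error 0.10, adjusted p = 0.174). None of the secreted ligands separated the days with an unadjusted p under 0.05 on its brightest probe set. FGF2, a mitogen of cortical progenitors, had a difference of 0.03 (interval -0.77 to 0.82), FGF9 of -0.10 and FGF18 of -0.08, while FGF1 ranged from 1.53 to 15.1. The receptor FGFR1 was at 187 to 198 at E60 and at 154, 180 and 238 at E80, a difference of -0.02 (interval -0.40 to 0.35). FGFR2, known from radial glia, had a difference of -0.31 (adjusted p = 0.396) that was -0.49 without array 6 and -0.20 without array 5. The carrier FGFBP3 had one of -0.33, and of -0.13 without array 5.

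The probe sets of FGF7, a ligand made by mesenchymal cells, were at odds. The brighter one was at 13.5, 10.8 and 16.8 at E60 and at 8.22, 10.5 and 9.99 at E80, a difference of -0.50 (adjusted p = 0.508). The other was at 1.16, 0.836 and 0.885 at E60 and at 4.22, 2.64 and 6.07 at E80, a difference of 2.10 (standard error 0.59, adjusted p = 0.114). Each kept the days apart, in opposite directions, and both are below the brightest 66%. Which strand of the gene each probe set reads was not checked. The summed signal of the fibroblast and meningeal markers was 819 to 1291 at E60 and 430, 847 and 332 on arrays 4, 5 and 6. Of these 4 markers, 3 were below 0, and COL3A1 had a difference of 0.22. Their part in the values of FGF7 was not tested.

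Hedgehog signalling is represented by GLI1 alone, a transcription factor that is also a direct target of the pathway. It was at 11.8, 9.82 and 11.5 at E60 and at 5.64, 1.35 and 3.50 at E80. All E80 arrays were lower and spread widely, with array 5 lowest. The difference of -1.88 was the most negative of the members, but at this low signal its standard error was 0.58 and its adjusted p 0.142.

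Of the 53 genes, 27 have more than 1 probe set, which allows the brightest to be set beside the rest. They are not always independent readings. By their codes the probe sets of KDR, LRP6, ACVR2A, INHBB, FGF1, FGF2 and FGF7 belong to the same transcript cluster within each gene. So do the dimmer ones of TGFBR1 and some of other genes, such as TGFB2, FLT1 and VEGFA. Within such clusters the codes often differ in a letter, A or S, and which strand each probe set reads was not checked. Many probe sets are also dim, as only 61 of the 92 member probe sets were among the brightest 66%. In 14 of the 27 genes all probe sets had a difference of the same sign, 8 of them lower and 6 higher at E80. TGFBR1, JAG1, FZD6, LRP6, ACVR2A and KDR were lower on all of theirs, and BMPR1B was higher on all 3. In the other 13 the signs differed. The values were small in some, as in EGFR (0.06 and -0.09) and FGFR1 (-0.02 and 0.14), and larger in others, as in TGFB2 (-1.04 to 0.68) and PDGFRB (-0.16 and 0.54). VEGFA gave 0.18, -0.06, -0.01 and -0.66 on its 4. When the log2 signals of all probe sets of a gene were averaged, the single member past the test was SMAD4, which has only 1 probe set (-0.46, adjusted p = 0.0494), while TGFBR1 had a difference of -0.96 with an adjusted p of 0.181.

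**Figure D3:**
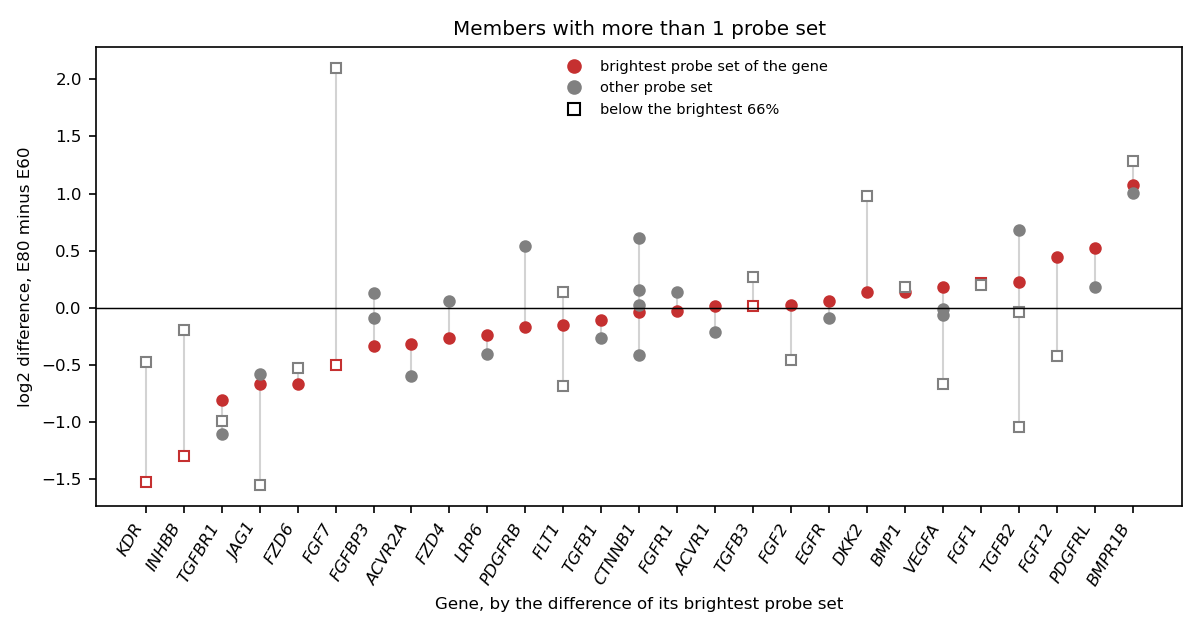
Log2 difference (E80 minus E60, vertical axis) of each probe set for the 27 members with more than 1, ordered by the brightest probe set (red); open squares are probe sets below the brightest 66%. TGFBR1 and BMPR1B keep to 1 side of the zero line, while the points of CTNNB1 (-0.41 to 0.61) and FGF7 (-0.50 and 2.10) lie on both.

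Other genes of the same pathways, which the naming rule leaves out, were read from a fixed list of 153, of which 53 were measured. Of these 1 rose and 1 fell, or 1.89% each, against 1.49% and 1.05% of all genes. At E80, 4 lay wholly above and 11 wholly below, or 7.55% and 20.8%, against 12.8% and 14.7% of all genes. In 39 (73.6%) the difference was below 0, against 50.1% of all genes, and in 31 (58.5%) under the common median, against 35.9%. BEND6, a nuclear repressor in Notch signalling, rose (1.43, standard error 0.15, adjusted p = 0.0159 from limma). THBS1, a matrix protein that can activate latent TGF-beta, fell. Its signal was 132 ± 6.65 (SD, n = 3) at E60 and 81.5 ± 4.03 (SD, n = 3) at E80, with a log2 difference of -0.70 (standard error 0.13, adjusted p = 0.0386). The study listed the BEND6 transcript from these arrays too, with a larger fold than the 2.69 found here. THBS1 did not pass whichever array was left out, and BEND6 not without array 1, 2 or 4.

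Beside the Notch ligands, 14 of 28 listed pathway genes were measured. RBPJ, the DNA-binding effector of Notch, was lower on each E80 array (-0.51, standard error 0.13, adjusted p = 0.0901), as were the protease ADAM10 (-0.35, adjusted p = 0.280; -0.21 without array 2), the target HES1 (-0.34, adjusted p = 0.287) and the gamma-secretase subunit NCSTN (-0.27, adjusted p = 0.312). These 4 of the 14 lay wholly below, against 14.7% of all genes, and 10 of the 14 were below 0, against 50.1%. The target HEY2 (-0.01), the protease ADAM17 (0.07) and LFNG (0.35) overlapped between the days. So did the gamma-secretase subunits PSENEN (0.08), PSEN2 (-0.06) and APH1A (-0.25). All 7 Wnt pathway genes measured, of 40 listed, were below 0, and 5 of the 7 under the common median. SFRP1, a secreted Wnt antagonist of progenitors, had a signal of 847, 892 and 1058 at E60 and 367, 452 and 685 at E80, with array 6 closest to E60. Its log2 difference was -0.94 (standard error 0.21, adjusted p = 0.0672), and without array 6 it passed at -1.19 (adjusted p = 0.0297). Of 13 measured TGF-beta and BMP genes, 11 were below 0 (9 under the common median), among them the SMAD corepressor TGIF1 (-0.91, adjusted p = 0.142). The proteoglycan DCN overlapped between the days (-1.52, adjusted p = 0.156). It is also 1 of the fibroblast markers, and the study listed it, and it passed without array 5 (-2.10, adjusted p = 0.0397). The BMP targets ID1, ID2, ID3 and ID4 had differences of -0.07, -0.51, -0.28 and -0.03, and all 4 overlapped between the days. All 4 FGF pathway genes measured, of 16 listed, were above 0, but FRS2 (0.01) and ETV5 (0.12) overlapped between the days. GRB2 was higher on each E80 array by little (0.17, interval -0.03 to 0.37). The ERK phosphatase DUSP6, a known feedback target of FGF, was at 188 to 267 at E60 and 324 to 397 at E80. DUSP6 was thus higher on each E80 array, and its difference of 0.59 (standard error 0.15) did not pass (adjusted p = 0.0988). The Hedgehog genes SUFU (-0.23) and IHH (-0.19) and the 13 receptor tyrosine kinase genes, from -0.45 to 0.90, gave no call.

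The 2 measured cell cycle markers of 4 both fell, TOP2A by 1.11 on the log2 scale (adjusted p = 0.0474 from limma) and CCNB1 by 1.19 (adjusted p = 0.0388). Their summed signal went from 409 to 452 at E60 down to 152 to 274 at E80. Among 3 measured astrocyte markers GFAP rose by 1.89 (adjusted p = 0.0304), while ALDH1L1 (0.80, adjusted p = 0.379) and SLC1A3 (0.12, adjusted p = 0.859) did not pass. Of 2 measured progenitor markers, HOPX rose by 0.84 (adjusted p = 0.0226), and VIM had a difference of -0.38 (adjusted p = 0.179). The 4 measured oligodendrocyte lineage markers summed to 759 to 947 at E60 and to 938 to 1705 at E80, highest on array 6, and none passed. TOP2A, CCNB1 and GFAP each passed without array 6 and none of the 3 without any other single array, among fits with 1 array left out HOPX passed only in that without array 5, and TOP2A and CCNB1 did not pass under the common median. Their part in the differences of the signalling genes was not tested.

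**Figure D4:**
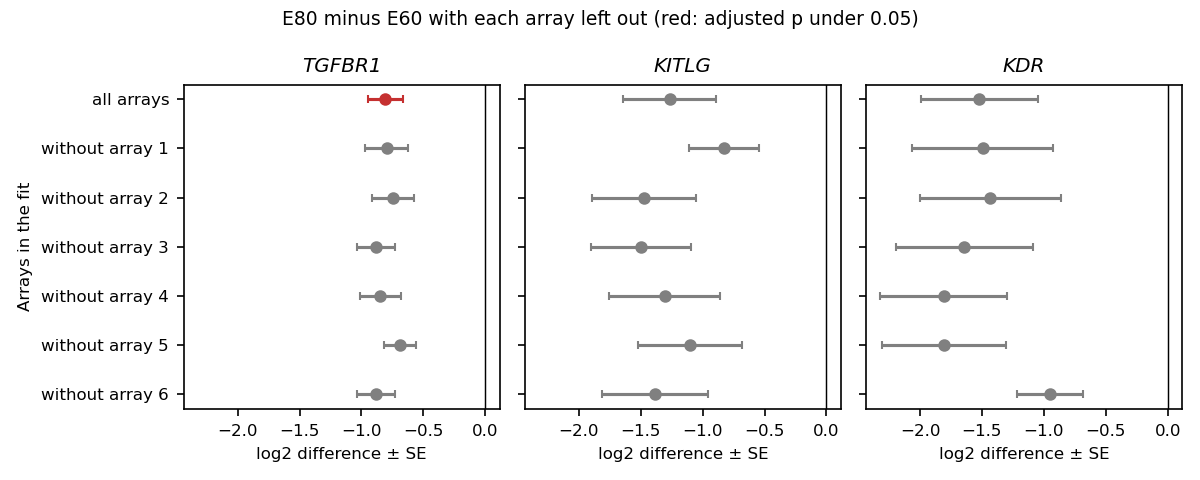
Log2 difference (E80 minus E60, horizontal axis) with its standard error for TGFBR1, KITLG and KDR, with all 6 arrays and with each array left out in turn; red marks an adjusted p under 0.05. TGFBR1 stays between -0.88 and -0.69, KITLG moves to -0.83 without array 1 and KDR to -0.95 without array 6.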

How the data were processed

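The authors deposited a linear MAS5 intensity for each probe set and array, a summary of matching minus mismatching probes scaled by a constant per array. The MAS5 version and the detection call of each probe set were not found in the paper, labels or file, and the study's selection of transcripts by fold and direction was not applied. The signals were taken to log2 with no pseudocount and no further normalization, so dim probe sets are noisy. After 124 of 24123 probe sets were left out as controls, 23999 were tested. Platform annotation gave 1 symbol to 10069, several to 198 and none to 13732. All 53 member symbols equal those of their gene IDs in the RefSeq table. E80 was compared with E60 by limma 3.58.1 under R 4.3.3, using lmFit, eBayes with a trend on mean signal, all 6 arrays and no covariate, and p-values were adjusted over every probe set tested (Benjamini-Hochberg). The paper names no test. The steps were tested on simulated data. Members and gene lists were chosen with earlier results of these data known. Named are KITLG, TGFBR1, KDR, members past the test or without overlap at an unadjusted p under 0.05, the 4 with the smallest p and the 2 brightest of each family, and up to 3 genes of each pathway list. All others, such as FGF7, EGFR, VEGFA, HES1 and the ID genes, were chosen after their values were seen. Groups came from the labels' embryonic day. Alternatives were other normalizations, an added constant, a filter on dim probe sets, other variance models, averaged probe sets, a fold rule and leaving out each array. No genome was used, and no coordinates or sequences are given. FZD1 was not analysed here. Arrays have no counting depth, and 3 per day limit the precision.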

Additional observations from a re-analysis of the deposited data

How the results depend on the processing

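No paired analysis was possible because the E60 and E80 arrays hold different embryos, with no pairing between the days. TGFBR1 was the 1 member past the test with all arrays, after quantile normalization, with 32 added to each signal, among the brightest 66% of probe sets and with the robust variance model. Setting the medians of the arrays to a common value left 1 member, but it was FGF12 in place of TGFBR1 (-0.69, adjusted p = 0.0591), and the mean of all probe sets of a gene left SMAD4. The number was 0 without the intensity trend, 4 with array weights (FGF12, JAG1, SMAD4 and TGFBR1), 0 whichever array was left out and 5 by a fold of at least 2 with no overlap. Over all probe sets, 467 passed (224 higher, 243 lower), and 763 among the brightest 66%, 0 without the intensity trend (3706 at an unadjusted p under 0.05; 16 members), 1169 with array weights, 1 to 367 with an array left out and 794 by the 2-fold rule. The count was 1 without array 1, 2 or 4, 294 without array 3, 367 without array 5 and 200 without array 6. Of the calls 48.0% were rises, and 74.2% (311 against 108) after the medians were set to a common value. Of the other pathway genes, 2 passed, 1 each after quantile normalization and the common median, 0 without the intensity trend and 0 to 2 with an array left out. Signs turned for CTNNB1 (0.081 with the common median, 0.069 with averaged probe sets), ACVR1B (0.10 with the common median, 0.025 with array weights, -0.058 to 0.039 with an array left out, above 0 without array 1, 3 or 6) and ETV5 (-0.038 to 0.25 with an array left out, below 0 without array 1). All other genes named by the rule kept their sign in every setting run. The causes were not tested. Which dim genes are expressed cannot be told without detection calls.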
